A study of Mus musculus with 11 samples.

Results

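The 39 genes described here encode the machinery that copies DNA in S phase: the MCM helicase, the factors that load and switch it on, the sliding clamp and its loader, the polymerases and primase, the enzymes that supply deoxynucleotides, and those that finish or repair the new strand. They were chosen by gene symbol and known function, with earlier results of these data known. Their counts beside those of all genes are therefore descriptive. All 39 were measured, out of 20352 genes on the array. Each gene level is the median of the log2 values of its probesets, and the 39 genes were covered by 585 probesets, with 3 to 51 per gene.

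Expression was measured on 11 arrays of mouse tissue. Of these, 5 held keratoacanthomas, squamous skin tumours of keratinocytes, all from mice carrying both the K14-Cre and the Zmiz1 transgenes. The other 6 held normal skin: samples 1 and 2 from double transgenic mice, samples 3 and 4 from mice with K14-Cre alone and samples 5 and 6 from mice with the Zmiz1 transgene alone. No skin without a transgene is among the samples, and the labels give neither the age of the mice nor the promoter of the Zmiz1 transgene. K14-Cre expresses Cre recombinase from the keratin 14 promoter, which is active in the basal keratinocytes of skin and other stratified epithelia. Zmiz1 encodes a transcriptional co-activator related to the PIAS proteins. Separate animals are not stated for the tissue pieces, and p-values therefore measure the spread between arrays, which may be technical.

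Array medians lay between 6.22 and 6.27 on the log2 scale, and the number of arrays limited the precision. Pearson correlations between arrays over all probesets used were 0.938 to 0.956 within the tumours, 0.880 to 0.946 within the skins and 0.783 to 0.906 for tumour and skin pairs. Keratinocyte markers were expressed in both groups. The mean level of 12 of them was 10.1 to 10.2 in keratoacanthomas and 9.41 to 9.89 in normal skins, with 5 markers higher and 2 lower in the tumours. Markers of other tissues also differed between the groups. All 16 skeletal muscle markers were lower in the tumours, with mean levels of 5.63 to 7.17 in keratoacanthomas and 10.2 to 11.5 in normal skins. Of 10 adipocyte markers 9 were lower (mean levels 5.84 to 6.85 in tumours and 7.54 to 8.69 in skins), as were 4 of 10 fibroblast markers (7.30 to 8.37 in tumours and 8.49 to 9.14 in skins). Of 10 myeloid markers 4 were higher and 2 lower (7.42 to 8.34 in tumours and 6.48 to 7.25 in skins). Of 7 measured lymphocyte markers 1 was lower (4.99 to 5.60 in tumours and 5.34 to 5.83 in skins), and none of 4 erythroid markers passed the test (5.51 to 6.51 in tumours and 5.61 to 6.41 in skins). Of 16 hair matrix and cortex markers none passed the test, but they marked out single arrays in both groups. Their mean level was 8.37 in keratoacanthoma 4 and 6.00 to 6.29 in the other 4 tumours, and 9.30 and 9.01 in normal skins 1 and 3 against 5.91 to 6.08 in the other 4 skins.

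DNA is copied once per cell cycle. In G1, the origin recognition complex with Cdc6 and Cdt1 loads a double hexamer of Mcm2 to Mcm7 onto each origin, and geminin blocks a second loading once S phase has begun. In S phase Cdc45 and the GINS complex join the hexamer to make the active helicase, primase lays down short primers, and DNA polymerases extend them with the help of the PCNA ring that replication factor C places on DNA. Ribonucleotide reductase and thymidylate synthase make the precursors. Many of these genes are targets of E2F transcription factors, which are released when cyclin-dependent kinases phosphorylate the retinoblastoma protein. In normal interfollicular epidermis, S phase is largely a feature of the basal layer, and in the growing hair follicle of the matrix.

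The promoters of these genes were searched for the letters that E2F proteins are known to bind, and 5 are shown so that the letters can be read beside the arrays' values. RefSeq promoter sequences of mouse build GRCm38.p6 covered 32 of the 39 genes and 27025 genes in all. Mcm4, Gmnn, Gins1, Gins2, Rfc2, Prim2 and Pole had no entry. In the 250 bases before the gene start, the letters TTTCCCGC, TTTGGCGC, TTTCGCGC or TTTGCCGC, on either strand, occurred in 8 of the 32 genes (25%) and in 2.16% of all genes. These were Mcm5, Mcm6, Mcm7, Orc1, Cdc6, Gins3, Rfc3 and Pola1. Each of these without its leading T, a shorter form that the longer one contains, occurred in 13 of 32 (40.6%) and in 9.01% of all genes. The members' promoters were also richer in G and C, with a median of 57.4% against 52% over all genes, and the letters GGGCGG occurred in 71.9% against 35.4% and CCAAT in 59.4% against 37.5%. The longer letters were in 4 of the 11 genes with an entry that were higher in keratoacanthoma (36.4%) and in 4 of the 21 that were not (19%). In the 25 mitosis and G2 genes with an entry they were in 1 (4%), and CCAAT was in 18 (72%). Among the 5 shown, Rrm2, Mcm6, Mcm5 and Orc1 were higher in keratoacanthoma and Cdc6 did not pass the test. These 5 were picked by name, and all hold a match to the shorter letters. Mcm3, Mcm10, Pcna, Rfc4 and Tyms, also higher in keratoacanthoma, hold none. Sequences run 5′ to 3′ towards the gene start, and capitals mark the shorter letters on either strand, merged where 2 matches overlap. The windows are chr12:24708004-24708253 (plus strand) for Rrm2, chr1:128359706-128359955 (minus strand) for Mcm6, chr8:75109259-75109508 (plus strand) for Mcm5, chr4:108579204-108579453 (plus strand) for Orc1 and chr11:98907901-98908150 (plus strand) for Cdc6.
Rrm2: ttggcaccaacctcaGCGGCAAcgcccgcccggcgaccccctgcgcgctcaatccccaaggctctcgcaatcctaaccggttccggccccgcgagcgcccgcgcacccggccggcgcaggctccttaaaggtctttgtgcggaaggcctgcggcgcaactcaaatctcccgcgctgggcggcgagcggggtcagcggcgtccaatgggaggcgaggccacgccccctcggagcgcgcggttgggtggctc
Mcm6: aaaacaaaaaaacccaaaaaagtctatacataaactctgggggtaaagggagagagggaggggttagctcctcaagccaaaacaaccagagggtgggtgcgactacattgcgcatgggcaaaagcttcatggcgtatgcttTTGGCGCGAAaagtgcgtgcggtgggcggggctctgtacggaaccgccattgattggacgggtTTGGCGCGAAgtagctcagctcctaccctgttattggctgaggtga
Mcm5: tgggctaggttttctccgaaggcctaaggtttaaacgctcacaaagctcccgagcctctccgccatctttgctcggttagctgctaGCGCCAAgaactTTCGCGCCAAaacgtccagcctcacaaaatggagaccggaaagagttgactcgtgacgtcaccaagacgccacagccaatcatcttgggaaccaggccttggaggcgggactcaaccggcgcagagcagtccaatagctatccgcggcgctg
Orc1: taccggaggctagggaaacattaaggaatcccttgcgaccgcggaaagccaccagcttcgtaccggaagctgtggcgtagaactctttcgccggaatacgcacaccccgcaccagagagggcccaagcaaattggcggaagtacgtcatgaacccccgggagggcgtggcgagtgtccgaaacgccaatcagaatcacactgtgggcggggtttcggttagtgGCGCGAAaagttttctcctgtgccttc
Cdc6: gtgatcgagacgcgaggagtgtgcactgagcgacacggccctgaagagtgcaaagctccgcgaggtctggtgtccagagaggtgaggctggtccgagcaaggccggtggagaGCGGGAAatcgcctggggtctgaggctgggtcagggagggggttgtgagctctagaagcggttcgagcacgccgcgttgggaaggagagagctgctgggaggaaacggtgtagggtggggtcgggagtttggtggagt
The Mcm6 promoter held 4 matches, as 2 overlapping pairs that started 109 and 46 bases before the gene start. That of Mcm5 held 3, of which the one farthest from the gene start began 164 bases before it. Rrm2, Orc1 and Cdc6 held 1 match each, at 235, 27 and 138 bases. A match describes these letters in this window only and says nothing of a bound factor.

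Keratoacanthomas expressed more of 16 of the 39 replication genes than normal skin, and less of none, at a limma adjusted p below 0.05 over all genes (background 14.5% of all genes higher and 10.8% lower). The remaining 23 did not pass the test with this median over probesets. With the mean over probesets 25 were called higher, adding Mcm2, Mcm7, Gmnn, Rfc1, Rfc5, Pola1, Prim1, Pole2 and Lig1. Calls also rose over all 20352 genes with the mean, to 3667 higher and 3214 lower, against 2959 and 2200 with the median. The 16 were Mcm3, Mcm4, Mcm5, Mcm6, Orc1, Mcm10, Gins1, Pcna, Rfc2, Rfc3, Rfc4, Prim2, Pole, Rrm1, Rrm2 and Tyms. Most of the differences were modest: Rrm2, Rrm1 and Mcm4 alone among the 39 were called and at least 2-fold higher (3.43% of all genes were). Of the 39 differences 36 were above 0, against 44.1% over all genes. Their median was 0.44 on the log2 scale, against -0.04 over all genes. All 5 tumours lay above all 6 skins for 13 genes (9.66% of all genes), each of which was also called, and no gene showed the opposite separation (6.31% of all genes). For the other 26 the groups overlapped. In bulk tissue, fewer cells of a type and less RNA per cell cannot be told apart, and the lower muscle, adipocyte and fibroblast markers of the tumours moved with these differences. Their part was not tested, and the muscle marker level and the group cannot be told apart: with it as a covariate, 0 of the 39 and 1 of all genes were called. Hair markers did not follow the groups. Without the 3 arrays high in them, chosen after seeing the data, 16 genes were again called higher and none lower. Rfc2 was no longer among these (0.38, adjusted p = 0.056) and Cdc45 was added (0.56, adjusted p = 0.033).

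**Figure D1:**
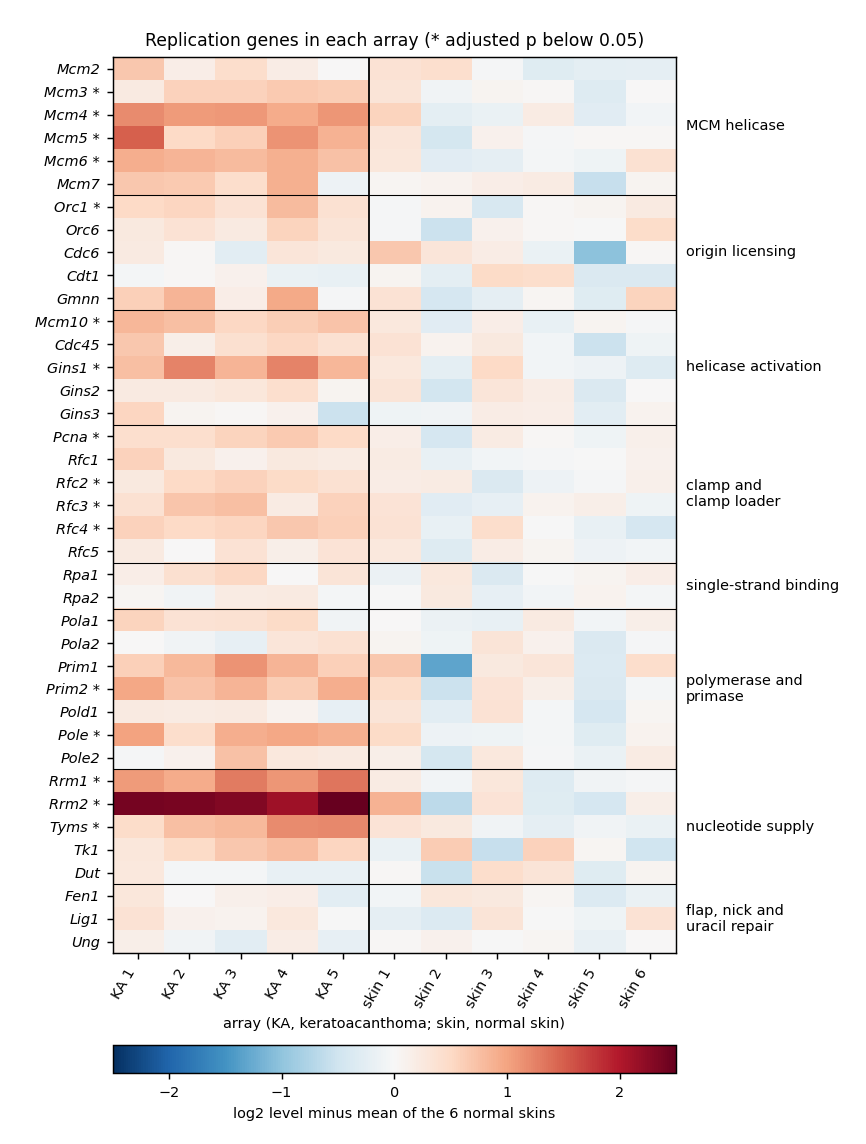
The colour shows each gene's log2 level on each array minus its mean over the 6 normal skins, for the 39 genes by role, with the 5 keratoacanthomas left of the 6 normal skins. The Rrm2 row separates the groups by the widest margin, and normal skins 2 and 5 hold the lowest skin value for 16 and 12 of the genes.

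Of the 6 subunits of the MCM helicase 4 were higher in keratoacanthoma, and the median difference was 0.68. The hexamer is built of 1 copy of each subunit, and Mcm4, Mcm6 and Mcm7 form a core with helicase activity of its own. Mcm4 was 7.56, 7.43, 7.45, 7.30 and 7.48 in keratoacanthomas 1 to 5, against a lowest, median and highest of 6.08, 6.26 and 6.92 in the 6 normal skins. All tumours lay above all skins, and the tumours differed little among themselves. The difference was 1.07 (SE 0.15, limma adjusted p = 0.00020), a 2.11-fold level. Mcm6 was 7.59, 7.54, 7.48, 7.58 and 7.42 in the tumours, against a lowest, median and highest of 6.41, 6.60 and 7.06 in normal skin. It likewise showed no overlap and a narrow range in the tumours, with a difference of 0.84 (SE 0.13, limma adjusted p = 0.00046). Mcm5 was 7.68, 6.69, 6.80, 7.32 and 7.06 in the tumours, against a lowest, median and highest of 5.75, 6.23 and 6.50 in normal skin, a difference of 0.91 (SE 0.18, limma adjusted p = 0.0024). Here keratoacanthoma 1 was the highest and keratoacanthomas 2 and 3 were nearest to the highest skin.

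The other MCM subunits overlapped between the groups. Mcm3 was 6.39, 6.73, 6.73, 6.81 and 6.79 in the tumours, against a lowest, median and highest of 5.83, 6.18 and 6.48 in normal skin, and keratoacanthoma 1 lay below the highest skin. Its difference was 0.53 (SE 0.12, limma adjusted p = 0.0071). Mcm7 was 6.998, 6.98, 6.77, 7.22 and 6.21 in the tumours, against a lowest, median and highest of 5.75, 6.40 and 6.54 in normal skin. Keratoacanthoma 5 lay within the skin range, and the difference of 0.50 (95% interval 0.11 to 0.90, adjusted p = 0.062) did not pass the test. It is near the threshold: Mcm7 was called with the mean over probesets, without dim probesets and without keratoacanthoma 5. Median centring, the replicate block and the hair covariate gave a call as well. Mcm2, a subunit that also binds histones, was 7.07, 6.57, 6.83, 6.57 and 6.41 in the tumours, against a lowest, median and highest of 6.10, 6.27 and 6.81 in normal skin. Both double transgenic skins, at 6.76 and 6.81, were higher than 3 of the 5 tumours, and the difference was 0.29 (95% interval -0.06 to 0.65, adjusted p = 0.22). All 6 differences were thus above 0, and 4 passed the test.

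Of the 5 origin licensing genes 1 was called, a share near the 14.5% of all genes called higher, and their median difference was 0.35. Orc1, the largest subunit of the origin recognition complex and in human cells the one whose protein is degraded in S phase, was 5.21, 5.24, 5.08, 5.51 and 5.09 in the tumours, against a lowest, median and highest of 4.32, 4.76 and 4.93 in normal skin, a difference of 0.51 (SE 0.12, limma adjusted p = 0.0081) without overlap. These are low values: the 25th percentile of all probesets on an array was 4.88 to 4.95, and Orc1 was the one member whose normal skin mean, 4.71, lay under that range. Without dim probesets the difference of Orc1 was 0.29 and did not pass the test (adjusted p = 0.16). Orc6, the smallest subunit, was 7.59 to 7.92 in the tumours and 6.82 to 7.81 in normal skin, a difference of 0.35 (95% interval 0.03 to 0.67, adjusted p = 0.11). Cdc6, the ATPase that joins the origin recognition complex to load MCM, was 6.28, 6.07, 5.79, 6.36 and 6.30 in the tumours, against a lowest, median and highest of 5.03, 6.16 and 6.71 in normal skin. The skins spread more widely than the tumours and enclosed all 5 of them, with a difference of 0.11 (95% interval -0.41 to 0.63, adjusted p = 0.78). Cdt1, the other loading factor, was 5.98 to 6.26 in the tumours and 5.79 to 6.63 in normal skin, a difference of -0.05 (95% interval -0.41 to 0.31, adjusted p = 0.86). Gmnn, which encodes its inhibitor geminin, was 5.06 to 6.03 in the tumours and 4.66 to 5.64 in normal skin, a difference of 0.51 (95% interval 0.04 to 0.97, adjusted p = 0.11). Of its 8 probesets 4 were called higher. Gmnn was called with the mean over probesets, without dim probesets, with the replicate block and without normal skin 6. The intervals of Cdc6 and Cdt1 include differences of either sign.

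Among the 5 genes that turn the loaded MCM ring into a running helicase, Mcm10 and Gins1 were higher. Mcm10, which is needed for the helicase to start unwinding, was 6.47, 6.40, 6.16, 6.27 and 6.37 in the tumours, against a lowest, median and highest of 5.36, 5.67 and 5.91 in normal skin. Gins1, a GINS subunit, was 6.44, 6.93, 6.55, 6.92 and 6.53 in the tumours, against a lowest, median and highest of 5.38, 5.59 and 6.19 in normal skin. Neither overlapped between the groups, and their differences were 0.68 (SE 0.12, limma adjusted p = 0.00092) and 0.98 (SE 0.16, limma adjusted p = 0.00072). Cdc45, which forms the active helicase together with MCM and GINS, was 7.24, 6.73, 6.98, 7.09 and 6.95 in the tumours, against a lowest, median and highest of 6.03, 6.58 and 6.94 in normal skin. Keratoacanthoma 2 lay under the highest skin, and the difference was 0.43 (95% interval 0.09 to 0.76, adjusted p = 0.062). This lies near the threshold: Cdc45 was called without dim probesets, with median centring, array weights or the hair covariate, and against single transgenic skin. Leaving out normal skin 1, normal skin 3 or the 3 arrays high in hair markers also gave a call. The other 2 GINS subunits listed were closer to 0, with 0.24 (95% interval -0.09 to 0.57, adjusted p = 0.27) for Gins2 and 0.04 (95% interval -0.31 to 0.39, adjusted p = 0.88) for Gins3. The 4 GINS proteins work as 1 complex, yet the 3 listed genes gave differences of 0.98, 0.24 and 0.04 on the log2 scale.

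The sliding clamp and its loader gave 4 calls among 6 genes. Pcna, the ring that tethers polymerases to DNA, was 9.94, 9.95, 10.08, 10.18 and 10.02 in the tumours, against a lowest, median and highest of 9.11, 9.60 and 9.73 in normal skin. All tumours were above all skins, by a difference of 0.51 (SE 0.12, limma adjusted p = 0.0075). RefSeq lists the pseudogenes Pcna-ps1 and Pcna-ps2, which were not separated from Pcna here, so that the value is uncertain to that extent. The loader has a large subunit, Rfc1, and 4 small ones. Rfc4 was 6.35, 6.27, 6.32, 6.45 and 6.37 in the tumours, against a lowest, median and highest of 5.35, 5.68 and 6.23 in normal skin, and Rfc2 was 5.99, 6.25, 6.33, 6.24 and 6.14 in the tumours, against a lowest, median and highest of 5.39, 5.80 and 5.96 in normal skin. Both separated the groups, by narrow gaps, with differences of 0.58 (SE 0.15, limma adjusted p = 0.013) and 0.44 (SE 0.12, limma adjusted p = 0.017). Rfc3 was 7.38, 7.70, 7.74, 7.20 and 7.57 in the tumours, against a lowest, median and highest of 6.72, 6.995 and 7.34 in normal skin, a difference of 0.52 (SE 0.14, limma adjusted p = 0.015), and keratoacanthoma 4 lay under the highest skin. Rfc1 and Rfc5 did not pass the test, with 0.28 (95% interval 0.04 to 0.51, adjusted p = 0.082) and 0.22 (95% interval -0.05 to 0.48, adjusted p = 0.22). Of replication protein A, which coats single-stranded DNA, neither gene listed did: Rpa1 gave 0.29 (95% interval 0.00 to 0.57, adjusted p = 0.13) and Rpa2 0.07 (95% interval -0.16 to 0.30, adjusted p = 0.68).

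Polymerase and primase genes were divided. Prim2, the large subunit of primase, was 6.50, 6.26, 6.39, 6.16 and 6.44 in the tumours, against a lowest, median and highest of 5.00, 5.59 and 6.00 in normal skin. Pole, the catalytic subunit of the leading-strand polymerase epsilon, was 6.27, 5.69, 6.17, 6.22 and 6.15 in the tumours, against a lowest, median and highest of 4.96, 5.18 and 5.73 in normal skin. Both were called, at 0.81 (SE 0.17, limma adjusted p = 0.0039) and 0.84 (SE 0.15, limma adjusted p = 0.0010), but for Pole keratoacanthoma 2 lay just under the highest skin. Prim1, the catalytic subunit of primase, was 7.96, 8.18, 8.49, 8.21 and 7.96 in the tumours, against a lowest, median and highest of 6.04, 7.64 and 8.04 in normal skin. Its values in normal skins 1 and 2, both double transgenic, were 8.04 and 6.04, the highest and lowest of the 6, and the difference was 0.80 (95% interval 0.16 to 1.43, adjusted p = 0.064). This lies near the threshold: Prim1 was called without normal skin 1 (0.93, adjusted p = 0.033), without normal skin 2 (0.53, adjusted p = 0.049) and with the mean over probesets (0.96, adjusted p = 0.0024), and over the alternatives other than the muscle covariate its adjusted p was 0.0024 to 0.20. Pola1, the catalytic subunit of polymerase alpha, was 6.54 to 7.18 in the tumours and 6.44 to 6.85 in normal skin, a difference of 0.34 (95% interval 0.06 to 0.62, adjusted p = 0.070). Pole2, a partner subunit of Pole, gave 0.26 (95% interval -0.09 to 0.60, adjusted p = 0.27). The smallest differences were those of Pold1, the catalytic subunit of polymerase delta, at 0.11 (95% interval -0.22 to 0.44, adjusted p = 0.65), and Pola2, at 0.08 (95% interval -0.23 to 0.38, adjusted p = 0.73).

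Nucleotide supply held the 2 largest differences of the 39 genes, in both subunits of 1 enzyme. Ribonucleotide reductase, which makes deoxynucleotides from ribonucleotides, has a large subunit, Rrm1, and a small subunit, Rrm2, which limits the enzyme to S phase. Rrm2 was 8.37, 8.36, 8.29, 8.10 and 8.60 in the tumours, against a lowest, median and highest of 5.33, 5.90 and 6.85 in normal skin. The lowest tumour was above the highest skin by more than 1 unit, and the spread lay among the skins, where normal skin 1 was highest and normal skin 2, of the same genotype, lowest. The difference was 2.37 (SE 0.23, limma adjusted p = 1.7e-05), with a 95% interval of 1.86 to 2.87 and a 5.16-fold level. Rrm1 was 7.45, 7.33, 7.69, 7.50 and 7.73 in the tumours, against a lowest, median and highest of 6.08, 6.34 and 6.68 in normal skin, a difference of 1.15 (SE 0.13, limma adjusted p = 3.8e-05) and a 2.22-fold level without overlap.

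Of the enzymes for thymidine nucleotides, 1 of 3 was called. Tyms, thymidylate synthase, was 6.56, 6.85, 6.91, 7.28 and 7.29 in the tumours, against a lowest, median and highest of 5.87, 6.01 and 6.44 in normal skin, a difference of 0.88 (SE 0.16, limma adjusted p = 0.0012) without overlap. Tyms rests on 3 probesets, which differed by -0.33, 0.48 and 1.85 and of which the last alone was called. Another 3 that also name the pseudogene Tyms-ps were not used, and the value of Tyms is uncertain on both counts. Tk1, cytosolic thymidine kinase, was 7.27, 7.45, 7.65, 7.75 and 7.52 in the tumours, against a lowest, median and highest of 6.39, 6.91 and 7.62 in normal skin. The highest skin exceeded 3 of the 5 tumours, and the difference was 0.55 (95% interval 0.08 to 1.02, adjusted p = 0.084). Dut, the dUTPase that keeps uracil out of DNA, was 6.25 to 6.70 in the tumours and 5.89 to 6.88 in normal skin, a difference of -0.04 (95% interval -0.41 to 0.32, adjusted p = 0.88).

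The genes that finish and repair the new strand showed no call among 3 with the median over probesets. Fen1, the flap endonuclease of Okazaki fragments, was 5.34 to 5.88 in the tumours and 5.28 to 5.89 in normal skin, a difference of 0.06 (95% interval -0.23 to 0.36, adjusted p = 0.78). Lig1, the ligase that seals the fragments, was 6.95 to 7.32 in the tumours and 6.63 to 7.33 in normal skin, a difference of 0.16 (95% interval -0.14 to 0.46, adjusted p = 0.44). With the mean over probesets Lig1 was called, at 0.42 (adjusted p = 0.0073). Ung, which removes uracil from DNA, was 5.51 to 5.95 in the tumours and 5.59 to 5.88 in normal skin, a difference of -0.04 (95% interval -0.28 to 0.19, adjusted p = 0.81). With 5 and 6 arrays, the intervals of Fen1 and Lig1 still allow rises of up to 0.36 and 0.46.

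**Figure D2:**
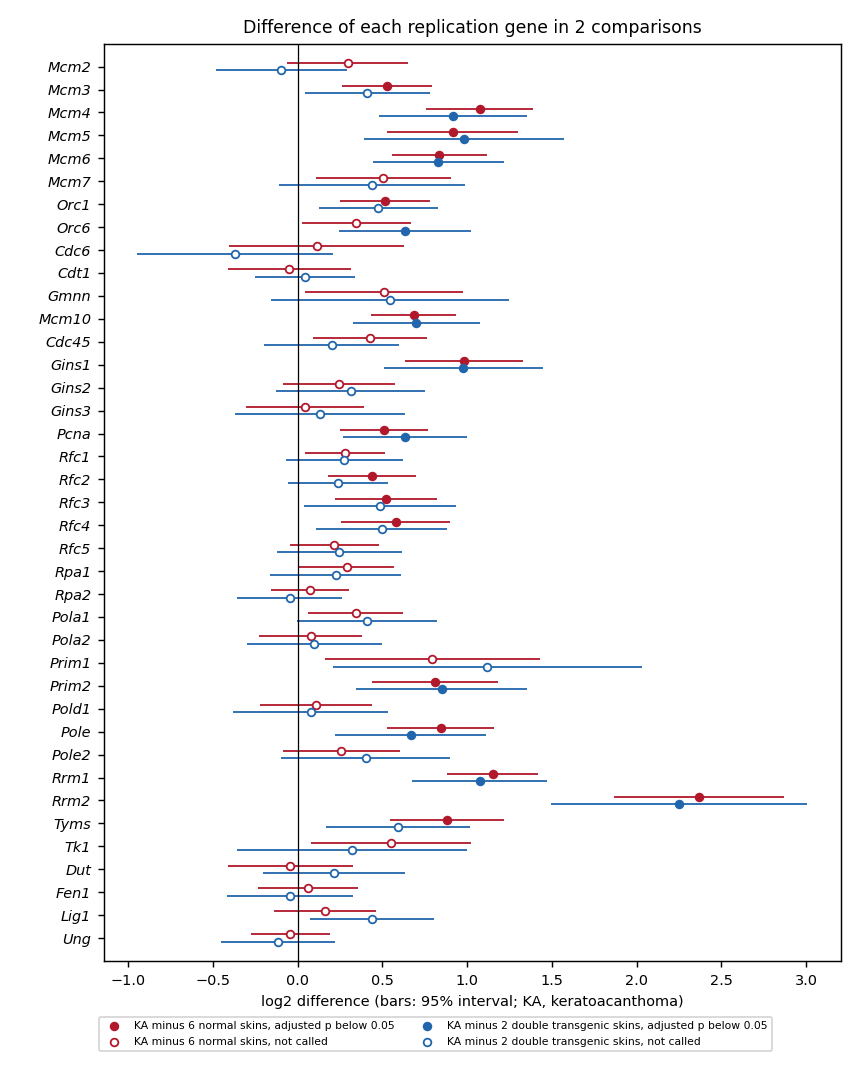
Points show the log2 difference of each of the 39 genes, with 95% intervals, for keratoacanthoma minus all 6 normal skins and minus the 2 double transgenic skins. Rrm2 lies farthest to the right at 2.37 and 2.25, and the genes of flap, nick and uracil repair lie at 0.16 or below in the comparison with all skins.

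Because all tumours carried both transgenes, they were also set against the normal skin of the same genotype, in a model of 4 groups. In this comparison 11 of the 39 genes were higher and none lower (background 10.6% and 6.93% of all genes), namely Mcm4, Mcm5, Mcm6, Orc6, Mcm10, Gins1, Pcna, Prim2, Pole, Rrm1 and Rrm2. It shares its tumours and 2 of its skins with the first comparison. Rrm2 differed by 2.25 (SE 0.34, adjusted p = 0.0021), Rrm1 by 1.08 (SE 0.18, adjusted p = 0.0035) and Gins1 by 0.98 (SE 0.21, adjusted p = 0.012). Orc6 was called here, at 0.63 (SE 0.18, adjusted p = 0.032), but not against all skins. The lowest differences were those of Cdc6, at -0.37 (SE 0.26, adjusted p = 0.36), and Ung, at -0.12 (SE 0.15, adjusted p = 0.64), and in all 34 of 39 differences were above 0 (45% of all genes). The median was 0.41, against -0.05 over all genes. The calls, of members and of all genes alike, depended on which of the 2 double transgenic skins was present. Rrm2 differed by 3.01 without normal skin 1 and by 1.49 without normal skin 2. With either skin left out the double transgenic group held 1 array, which was assumed to vary like the other groups. Of the fits that kept both double transgenic skins and left out 1 array, the one without keratoacanthoma 5 gave the fewest calls among the 39. In it 7 of the 39 genes were higher, as were 1687 of all 20352 genes.

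The normal skins alone showed no call by genotype. Double transgenic skin against the mean of both kinds of single transgenic skin gave 0 of 39 members at a limma adjusted p below 0.05 (background 0.00983% of all genes higher, 0.00491% lower and 0.0147% in either direction). At an unadjusted p below 0.05 there were 4, a share near the 10.2% of all genes, so the count does not set the members apart. These were Mcm2, Orc6, Cdc6 and Lig1. Mcm2 averaged 6.79 in double and 6.20 in single transgenic skin, a difference of 0.59 (SE 0.18, adjusted p = 0.37), and Cdc6 6.53 in double and 5.81 in single transgenic skin, a difference of 0.72 (SE 0.27, adjusted p = 0.43). Lig1 ran the other way, with 6.69 in double and 7.10 in single transgenic skin and a difference of -0.42 (SE 0.17, adjusted p = 0.46). Over the 39 genes the differences were between -0.49 and 0.72, with a median of 0.05 against 0.01 over all genes. With 2 and 4 skins, intervals were wide, and that of Cdc6 spanned 0.12 to 1.32. Without normal skin 1, double transgenic skin held 1 array, normal skin 2, and the difference of Prim1 was -1.48. That array held the lowest Prim1 value of all the skins, and many other genes also deviated in it.

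The probesets of a gene, which cover different stretches of its transcript, did not all move alike. Of the 585 probesets of the 39 genes, 124 were higher and 3 lower at an adjusted p below 0.05 over all 211507 probesets (background 8.29% and 6.98%). In all 454 had a difference above 0, and the median was 0.42. In 6 genes, Mcm4, Pcna, Prim1, Rfc4, Rrm1 and Rrm2, every probeset lay above 0. For Rrm1 12 of 20 probesets were called, over a range of 0.50 to 1.87, for Rrm2 7 of 9, over 0.36 to 2.88, and for Mcm4 8 of 16, over 0.10 to 1.95. These genes thus rested on many probesets. The size depended on the probesets, however: 2 of the 9 probesets of Rrm2 differed by more than the gene level's 2.37, their median difference was 1.70, and the gene level taken as a mean over probesets differed by 1.64. Prim1, which failed the gene test, had 6 of 14 probesets called and all between 0.41 and 1.70. At the other end Cdc6 had 1 of 9 called, over -0.31 to 1.88, and Cdt1 0 of 11. The 3 lower probesets belonged to Mcm5, Pole and Lig1, 1 each. For Lig1 5 of 28 were higher and the range was -0.98 to 2.01, so that the gene level is a median over probesets on both sides of 0. Of the 23 genes that failed the gene test, 13 had at least 1 probeset called higher and 10 none. The share of all genes with a called probeset was not counted, and 8.29% of all probesets were called higher. Nor were probesets above 0, or genes with every probeset above 0, counted over all genes. These counts therefore describe the 39 genes only.

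**Figure D3:**
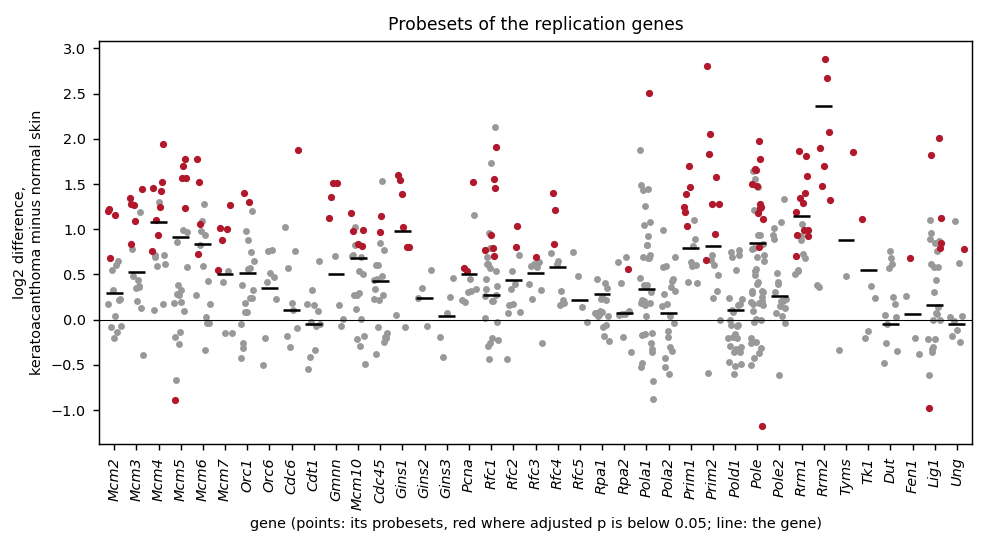
Each point is the log2 difference, keratoacanthoma minus normal skin, of 1 probeset, in a column per gene, with the gene's own difference as a line and probesets of adjusted p below 0.05 in red. All 9 probesets of Rrm2 lie between 0.36 and 2.88, while those of Lig1 spread over both sides of 0.

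Array by array, the tumours spread less than the skins. The mean level of the 39 genes was 6.88, 6.80, 6.84, 6.90 and 6.76 in keratoacanthomas 1 to 5, against 6.56, 6.18, 6.43, 6.37, 6.14 and 6.37 in normal skins 1 to 6. The standard deviation was 0.06 among the tumours and 0.16 among the skins, and the lowest tumour was above the highest skin. Among the skins, normal skin 1 was highest for 15 genes and normal skin 3 for 10, the same 2 arrays in which hair markers were high. Normal skin 2 was lowest for 16 genes and normal skin 5 for 12. Normal skin 3, high in hair markers, was also lowest for 6, and normal skin 1 for 0. Mitosis genes showed the same 2 skins on top, with a mean level of 6.80 and 6.43 in normal skins 1 and 3 and 5.54 to 5.73 in the other 4. In the tumours that level was 7.19 to 7.36, and keratoacanthoma 4, the tumour with high hair markers, was at 7.28. Whether hair follicle content contributes to the level of the 39 genes in these skins was not tested beyond the counts without the 3 arrays. Among the tumours, keratoacanthoma 1 was highest for 14 genes, keratoacanthoma 4 for 12, and keratoacanthoma 5 lowest for 11.

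**Figure D4:**
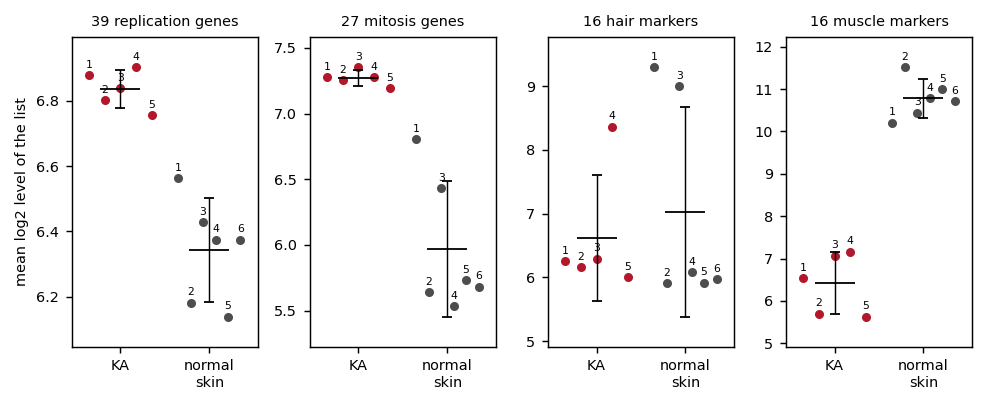
Points show the mean log2 level of 39 replication genes, 27 mitosis genes, 16 hair markers and 16 muscle markers on each numbered array, keratoacanthomas (KA) left of normal skins, with mean and SD as bars. The replication level is 6.76 to 6.90 in the tumours and 6.14 to 6.56 in the skins, whereas the hair markers are high in keratoacanthoma 4 and in normal skins 1 and 3.

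Other genes of the same processes were read from lists chosen by function, also with earlier results of these data known. Each count stands against the 14.5% of all genes called higher and the 10.8% called lower, as a description only. Of 33 further fork and origin genes 20 were higher and none lower, with a median difference of 0.67. They included Topbp1 (0.77, adjusted p = 0.00011), a scaffold for helicase activation, Ticrr (1.14, adjusted p = 0.00039), its partner, Tipin (1.01, adjusted p = 0.00036), a fork protection factor, and Top1 (1.01, adjusted p = 0.00040), a topoisomerase. Of 24 measured genes of nucleotide synthesis 13 were higher and 1 lower, with a median of 0.53. Shmt2, a mitochondrial enzyme of the folate cycle, differed by 1.70 (adjusted p = 1.0e-06), Gmps and Impdh2, of GMP synthesis, by 0.90 and 0.91 (adjusted p = 0.00033 and 0.00077), and Samhd1, which degrades deoxynucleotides, by 1.08 (adjusted p = 2.8e-05). Ctps2, of CTP synthesis, was the lower one (-0.38, adjusted p = 0.043). The chromatin assembly list gave 6 of 12 higher and none lower, with a median of 0.57. Its largest difference was that of Cks1b (1.96, adjusted p = 0.00040), a subunit of cyclin-dependent kinases and not a chromatin assembly factor. Also higher were Hells (1.53, adjusted p = 0.00048), a chromatin remodeller, the histone chaperone Nasp (0.93, adjusted p = 0.0012) and Dnmt1 (0.82, adjusted p = 0.0022), the maintenance DNA methyltransferase.

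Of 30 regulators in the E2F and G1/S list 12 (40%) were higher and 3 lower, a count of lower genes near the 10.8% of all genes, and the median difference was 0.16. Tfdp1, the dimer partner of E2F, differed by 1.33 (adjusted p = 1.4e-05), and Cdk4 and Cdk6, the kinases that phosphorylate the retinoblastoma protein, by 1.24 and 1.43 (adjusted p = 4.9e-05 and 3.8e-05). E2f8, a repressive E2F, was also higher (1.30, adjusted p = 0.00024). Lower were Ccnd2 (-0.64, adjusted p = 0.027), a D-type cyclin, and the kinase inhibitors Cdkn1b (-0.76, adjusted p = 0.0011) and Cdkn1c (-0.52, adjusted p = 0.0082). The inhibitor Cdkn1a went the other way (0.82, limma adjusted p = 0.013), and Cdkn2a, Cdkn2b, Cdkn2c and Cdkn2d did not pass the test. Neither did E2f1, E2f2 and E2f3, with differences of -0.03, -0.06 and 0.17. E2f4, E2f5 and E2f7 were higher by 0.50, 0.75 and 0.71 (limma adjusted p = 0.0084, 0.0012 and 0.026). The cyclins Ccne1, Ccne2 and Ccna2 were higher by 0.91, 0.95 and 1.23 (limma adjusted p = 0.0038, 0.0060 and 0.0064). E2f6, Ccnd1 and Ccnd3 did not pass the test. Of 12 genes that remove or stabilise licensing and cell cycle factors 5 were higher and none lower, with a median of 0.43. They included Cdc20 (1.34, adjusted p = 0.0013), an activator of the anaphase-promoting complex, Cul4b (0.77, adjusted p = 0.0029) and Ddb1 (0.49, adjusted p = 0.0058), parts of the ubiquitin ligase that degrades Cdt1, and the deubiquitinase Usp37 (0.74, adjusted p = 0.023).

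Checkpoint, repair and mitosis genes were read in the same way. Of 16 measured S phase checkpoint genes 6 were higher and none lower, with a median of 0.38, among them the kinase Chek1 (0.88, adjusted p = 0.0074), the helicase Blm (0.84, adjusted p = 0.012), Brca2 (0.70, adjusted p = 0.0053), of break repair, and Fanci (0.65, adjusted p = 0.0040), of crosslink repair. Of 8 genes of uracil and base excision repair, Tdg was higher (0.68, adjusted p = 0.0061) and Smug1 lower (-0.41, adjusted p = 0.043), both of them DNA glycosylases, which is a share near that of all genes in each direction. The mitosis and G2 list was called throughout, with 27 of 27 measured genes higher and a median of 1.33. It included Ncapg (1.80, adjusted p = 7.2e-05), a condensin subunit, Bub1b (1.37, adjusted p = 9.1e-05), of the spindle checkpoint, Hmmr (2.10, adjusted p = 0.00021), a spindle protein, and Birc5 (1.46, adjusted p = 0.00054), of the chromosomal passenger complex. The difference between this median and the 0.44 of the 39 replication genes was not tested, since both lists come from the same arrays and genes are not replicates. Against the double transgenic skins, where 10.6% of all genes were higher and 6.93% lower, the same lists gave 14 of 33 fork genes, 10 of 24 of nucleotide synthesis, 5 of 12 of chromatin assembly, 8 of 30 of E2F and G1/S control, 3 of 12 of licensing turnover, 2 of 16 of the checkpoint, 1 of 8 of base excision and 16 of 27 of mitosis higher. In that comparison 2 genes of E2F and G1/S control and 1 of base excision were lower.

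**Figure D5:**
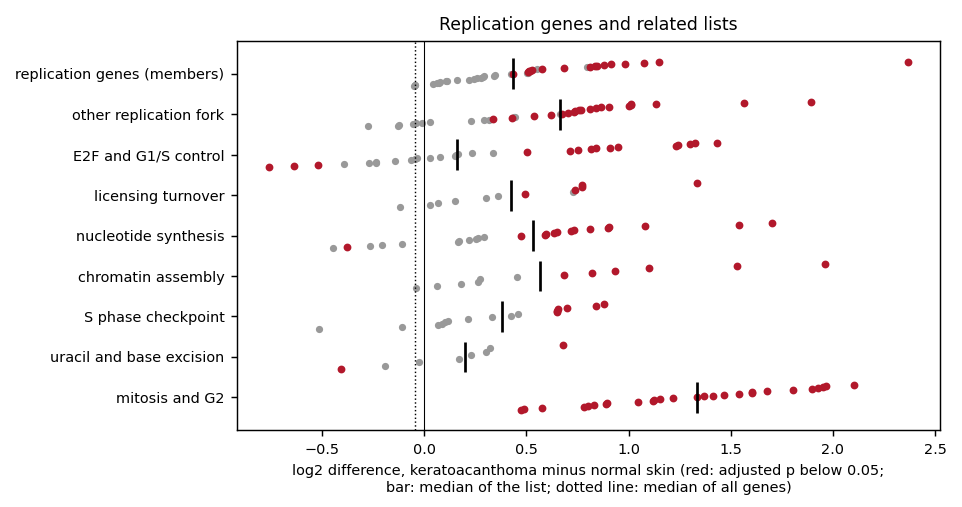
Points show the log2 difference, keratoacanthoma minus normal skin, of every gene in each list, with the list's median as a bar and adjusted p below 0.05 in red. The 39 replication genes have a median of 0.44 and run from -0.05 to 2.37, and the mitosis and G2 list lies from 0.47 to 2.10.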

How the data were processed

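Log2 values of 241576 probesets on 11 arrays (5 keratoacanthomas, 6 normal skins) were used as deposited. The submitters' processing notes name RMA, Partek and mm9, and per the labels RNA was amplified before hybridisation. Their versions and settings are not given in the sources used here. Genes were assigned to probesets by the array's annotation: 212097 named 1 gene, 590 of these with values identical to another of the same gene were dropped, and 4475 naming several and 25004 naming none were not used. Symbols were updated to RefSeq (2742 updated, 17621 current, 53 kept). A gene's level was the median over its probesets, for 20352 genes. The array's annotation is old and strand or copy overlap of probes was not checked.

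Groups were fitted with limma 3.58.1 in R 4.3.3 (lmFit, eBayes, two-sided, Benjamini-Hochberg over all genes or all probesets, threshold 0.05), as 2 groups and as 4 groups by genotype. The fit was tested on simulated data. Promoters were searched and tables made in Python 3.11.15 with pandas 2.3.3 and numpy 2.4.6, and figures with matplotlib 3.10.9. Intervals are at 95%. The members and the related and marker lists were chosen with earlier results of these data known. Every member is named. Per related list up to 4 higher and 2 lower genes of smallest adjusted p are named. Ccnd1 to Ccnd3, Ccne1, Ccne2, Ccna2, Cdkn1a, Cdkn2a to Cdkn2d and E2f1 to E2f7 were chosen after their values were seen. Numbers shared by tumours and skins did not pair them. Correlations of their deviations from the group means were -0.08, -0.03, -0.14, -0.18 and 0.10. Alternatives took the mean in place of the median, left out each array in turn, or probesets or genes dimmer than the 25th percentile, or used quantile normalization, median centring, trend and robust eBayes, array weights, a replicate block, 1 kind of skin as the comparison or hair or muscle covariates.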

Additional observations from a re-analysis of the deposited data

Results flagged for a closer look

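Values far from the rest of their group were looked for with Dixon's test in 78 groups, each 1 of the 39 genes in the tumours or in the skins, and 3 were found. Chance marks about 1 in 20 such groups. Mcm3 in keratoacanthoma 1 was 6.387, against 6.732 to 6.812 in the other tumours. Pole in keratoacanthoma 2 was 5.691, against 6.148 to 6.267 in the other tumours. Mcm7 in normal skin 5 was 5.754, against 6.376 to 6.54 in the other skins. The first 2 are the tumours that made Mcm3 and Pole overlap with normal skin.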

How the results depend on the processing

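The count of 16 replication genes higher in keratoacanthoma than in normal skin stands beside 2959 of all 20352 genes. It was 25 with the mean over probesets (3667 of all genes) and 9 against double transgenic skin alone (1942 of all genes). With the muscle covariate, a level that nearly follows the groups, it was 0 (1 of all genes). With each array left out it was 16 to 18 (2406 to 2942 of all genes), and none of the 16 calls was lost. It was 16 with the replicate block (2596 of all genes), without Rfc2 and Rfc3. In the others it was 15 to 21 (2408 to 3485 of all genes tested). Median centring moved the share of higher among all called genes to 67.5%, against 57.4%, and gave 21 higher and 0 lower members. Mcm4, Mcm6, Mcm10, Gins1, Prim2, Rrm1 and Rrm2 were called under all 24 alternatives but the muscle covariate, while Orc1 was lost without dim probesets and Pcna with quantile normalization. Apart from the mean over probesets, at least 1 alternative added a call of Mcm2, Mcm7, Orc6, Gmnn, Cdc45, Rfc1, Pola1, Prim1 or Tk1. Without 1 array the count against double transgenic skin was 1 to 17, and that of genes lower in double than in single transgenic skin 0 to 1. Over all related lists, genes were higher in 90 cases (2959 of all genes), and in 0 with the muscle covariate (1 of all genes). They were lower in 5 cases (2200 of all genes). This was 3 with median centring, the replicate block, the hair covariate or without the 3 hair-rich arrays (1677 to 2340 of all genes). It was 0 with the muscle covariate (0 of all genes) and 2 to 5 with an array left out (1612 to 2207 of all genes). Of member probesets 3 were lower (14755 of all 211507 probesets). This was 5 with array weights (17046 of all) and 2 to 5 with an array left out (9941 to 14457 of all). Differences near 0 changed sign. Against double transgenic skin they were -0.10 (Mcm2), -0.37 (Cdc6), 0.044 (Cdt1), -0.046 (Rpa2), 0.21 (Dut) and -0.046 (Fen1), and against single transgenic skin -0.0025 (Gins3). With the mean they were -0.0073 (Pold1), 0.17 (Dut) and 0.22 (Ung), without dim probesets 0.29 (Dut), with quantile normalization 0.034 (Ung), and with centring 0.010 (Cdt1), 0.016 (Dut) and 0.017 (Ung). Without the hair-rich arrays they were 0.11 (Cdt1), -0.027 (Rpa2) and 0.11 (Dut). With the muscle covariate they were -0.69 (Cdc6), -0.35 (Pold1), 0.27 (Ung), -0.17 (Orc6), -0.18 (Mcm10), -0.30 (Gins2), -0.10 (Rfc1), -0.25 (Rfc3), -0.34 (Rfc5), -0.53 (Pola2), -0.82 (Prim1) and -0.51 (Prim2). With each array left out they were -0.092 to 0.24 (Cdc6), -0.12 to 0.044 (Cdt1), -0.081 to 0.19 (Gins3), -0.16 to 0.043 (Dut), -0.0053 to 0.14 (Fen1) and -0.10 to 0.011 (Ung). The cause was not tested.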
